A study of Homo sapiens with 4 samples.

Results

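The genes described here are 10 subunits of the integrins, the receptors that hold cells to the extracellular matrix. They were chosen by gene symbol, ITGA2, ITGA3, ITGA5, ITGA6 and ITGAV for alpha subunits and ITGB1, ITGB4, ITGB5, ITGB6 and ITGB8 for beta subunits, and all 10 were found among the 17064 rows of the deposited expression table. Their levels were compared in KYSE-150 cells, an established human line from a squamous carcinoma of the esophagus. The tested cells carry a stable hairpin RNA against NSUN6, an enzyme that forms 5-methylcytosine in RNA. The 4 groups were polyribosome-bound RNA and input RNA of the knockdown-labelled cells, and polyribosome-bound RNA and input RNA of control cells with normal NSUN6. Each group was 1 poly(A) RNA library. The spread between replicates is therefore unknown, and no difference below was tested.

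All cells received cycloheximide at 100 µg/ml, which halts ribosomes on their messages, and were lysed with a detergent. The input is 10% of each cleared lysate, and polyribosomes were collected from the remainder by ultracentrifugation on 30% sucrose. Whether the stable line was 1 clone or a pool, and which hairpin it carried, is not given in the sources used here. At the foot of the table, a repeated header attributes the control columns to K150 cells with a GFP hairpin and the other pair to K30 cells with a Mettl1 hairpin. In it the fractions of that pair are swapped relative to the top header. The top header, which matches the sample labels, was followed, the cells are called knockdown-labelled throughout, and the effect of exchanging that pair of fractions is given beside the results.

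The targeted gene, NSUN6, was at 0.38 FPKM on polyribosomes and 3.83 FPKM in input of knockdown-labelled cells, against 10.1 and 8.85 FPKM in control cells. FPKM is a level scaled to transcript length and to library size, so subunits can be compared within a library. The read depth is unknown. The fixed markers of any epithelium summed to 4771 FPKM on polyribosomes and 3931 FPKM in input of knockdown-labelled cells, and to 4296 and 3207 FPKM in control cells. Those of basal and squamous epithelium summed to 567 and 465 FPKM in knockdown-labelled cells against 1998 and 1570 FPKM in control cells. Glandular markers went the other way, at 2458 and 2641 FPKM in knockdown-labelled cells against 6.23 and 5.74 FPKM in control cells, except TFF1, which was at 0 in every library. Of 17 markers of fibroblasts, endothelium, immune cells and muscle in the table, 15 were under 1 FPKM in every library, the exceptions being COL1A1 and CD68. The part of these epithelial marker differences in the integrin values was not tested, and in bulk RNA fewer cells of a type and less RNA per cell cannot be told apart. By the repeated header, cell line and hairpin also differ between the knockdown-labelled and control columns. If it holds, a difference of cell line cannot be told apart from one of knockdown in any comparison below.

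Integrins work as pairs of an alpha and a beta subunit, and a subunit is retained in the cell until it finds its partner. In stratified epithelium the basal layer rests on laminin through alpha3-beta1 and through alpha6-beta4, the core of the hemidesmosome, which ties the basement membrane to the keratin filaments. Alpha2-beta1 binds collagen and alpha5-beta1 binds fibronectin, while alphaV joins beta5, a vitronectin receptor, or beta6 and beta8, which bind and activate latent TGF-beta.

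The subunits fell into 2 classes of base composition, which the polyribosome to input ratios below followed. The input differences, knockdown-labelled minus control in log2(FPKM + 1), overlapped between the classes. They ran from -0.56 to 2.46 (median 1.27) in the 6 subunits low in G and C. In the 4 rich in G and C they ran from -0.42 to 1.11 (median 0.22). To show the classes, the last 60 coding bases, which end with the stop codon and encode the C-terminal end of the cytoplasmic tail, are printed for 5 subunits from 1 GENCODE 29 transcript each, on the coding strand. Capitals mark G or C at the last base of a codon.
ITGA3: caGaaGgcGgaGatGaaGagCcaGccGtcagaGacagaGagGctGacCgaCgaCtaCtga
ITGA6: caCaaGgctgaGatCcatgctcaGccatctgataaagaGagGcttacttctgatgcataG
ITGB4: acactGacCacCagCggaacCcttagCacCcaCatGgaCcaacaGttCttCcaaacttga
ITGB5: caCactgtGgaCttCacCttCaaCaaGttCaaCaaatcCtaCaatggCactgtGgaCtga
ITGB1: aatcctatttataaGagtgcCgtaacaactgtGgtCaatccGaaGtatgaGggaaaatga
The ends of ITGA3 and ITGA6, closely related laminin receptor subunits, had 37 of 60 bases in common, and 14 of their 20 last codon positions differed. ITGA3 had G or C at 17 of 20 of these positions and ITGA6 at 8 of 20. ITGB4 had G or C at 13 of 20, ITGB5 at 15 of 20 and ITGB1 at 7 of 20. Of the ends not printed, that of ITGA5 had 10 of 20 and that of ITGA2 9 of 20, so the classes nearly met in this stretch. Over all its 60 bases they overlapped, with 45% G and C in ITGB5 and 46.7% in ITGA6.

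Over whole transcripts the classes did not overlap. ITGB4 (63.7% G and C), ITGA3 (60.9%), ITGA5 (58.7%) and ITGB5 (54.3%) lay above the median of 52.2% over 7337 expressed genes. ITGA6 (42.9%), ITGA2 (40.2%), ITGB6 (40.1%), ITGB1 (39.98%), ITGAV (38.3%) and ITGB8 (37.8%) lay below it. At the last codon position over the whole coding sequence the 4 subunits of the first class had 67.8% to 82.8% G or C, and the other 6 had 38.5% to 47.9%. The alpha6-beta4, alpha3-beta1, alpha5-beta1 and alphaV-beta5 receptors each join a subunit of each class, whereas alpha2-beta1, alphaV-beta6 and alphaV-beta8 join 2 subunits low in G and C. ITGA6, ITGAV and ITGB6 lie on chromosome 2, and ITGA3 and ITGB4 on chromosome 17. NSUN6 is known to methylate messages mainly at a CTCCA sequence (CUCCA in RNA) in the 3′UTR. These letters, searched on the sense strand, occurred at least once in the 3′UTR of 9 of the 10 subunits and of 69.6% of the 7337 genes. ITGB1 had none, and the 10 subunits together had 0.94 per kilobase of 3′UTR, against 1.57 over all these genes. A match of letters is a description and not a methylated site.

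ITGA3 and ITGB4 were the highest alpha and beta subunit in every library. ITGA3 was at 156 FPKM on polyribosomes and 101 FPKM in input of knockdown-labelled cells, and at 60.8 FPKM on polyribosomes and 63.8 FPKM in input of control cells. ITGB4 was at 116 and 91.3 FPKM in knockdown-labelled polyribosome and input RNA, and at 43.1 and 41.9 FPKM in control polyribosome and input RNA. Both messages were thus highest in knockdown-labelled polyribosome RNA, and their 2 control values lay close together.

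ITGB1, the subunit shared by the collagen and fibronectin receptors and by alpha3-beta1, was at 3.89 FPKM on polyribosomes and 39.7 FPKM in input of knockdown-labelled cells. In control cells ITGB1 was at 26.7 FPKM on polyribosomes and 30.4 FPKM in input. ITGA6 was at 2.34 FPKM on polyribosomes and 28.5 FPKM in input of knockdown-labelled cells, against 6.37 and 10.2 FPKM in control cells. For both genes the knockdown-labelled polyribosome library was the lowest of the 4 and the knockdown-labelled input the highest.

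ITGA5 and ITGB5 were the steadiest of the 10. ITGA5, of the fibronectin receptor, was at 14.7 and 11.4 FPKM in knockdown-labelled polyribosome and input RNA, and at 16.0 and 15.6 FPKM in control polyribosome and input RNA. ITGB5 was at 23.7 and 18.3 FPKM in knockdown-labelled polyribosome and input RNA, and at 22.2 and 21.4 FPKM in control polyribosome and input RNA. The remaining subunits, ITGB6, ITGAV, ITGA2 and ITGB8, averaged under 5 FPKM across libraries.

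ITGB6 was at 1.10 FPKM on polyribosomes and 8.35 FPKM in input of knockdown-labelled cells, against 0.26 and 0.70 FPKM in control cells. ITGAV was at 0.46 and 5.20 FPKM in knockdown-labelled polyribosome and input RNA, against 0.46 and 0.91 FPKM in control polyribosome and input RNA. ITGA2, of the collagen receptor, was at 0.57 and 4.25 FPKM in knockdown-labelled cells, against 0.48 and 1.38 FPKM in control cells. These 3 genes shared a pattern in which the knockdown-labelled input stood above the other libraries. ITGB8 differed from them, being at 0.30 and 1.22 FPKM in knockdown-labelled polyribosome and input RNA, against 1.20 and 2.28 FPKM in control polyribosome and input RNA, with control input the highest.

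**Figure D1:**
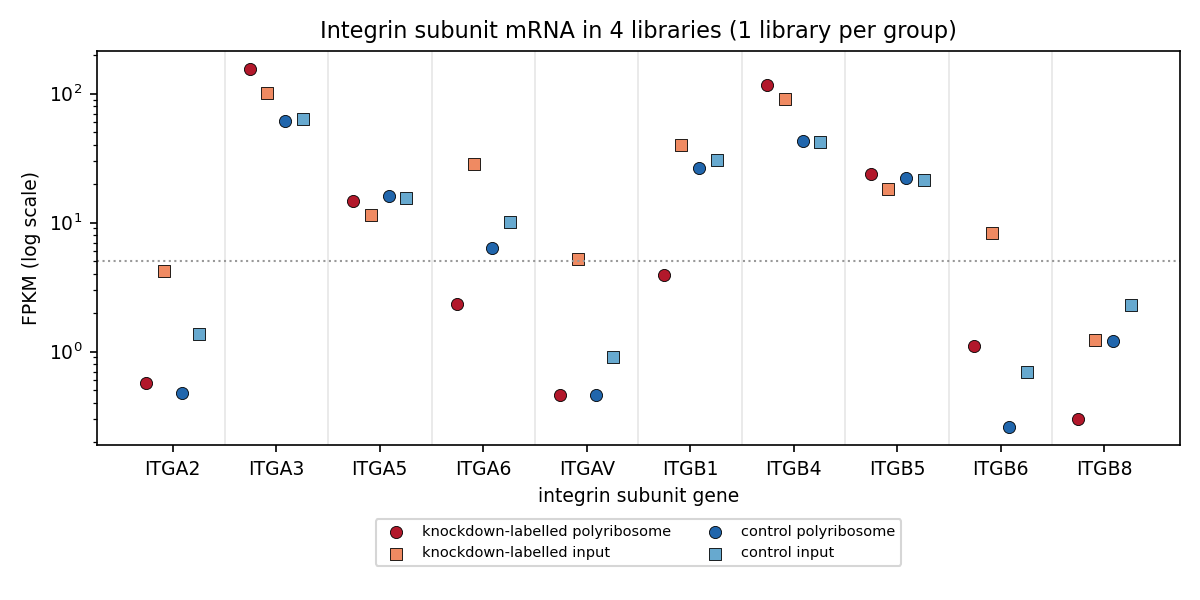
FPKM of the 10 integrin subunits on a log scale, with 1 point per library, circles for polyribosome RNA, squares for input RNA, red and orange for knockdown-labelled cells, blue for control cells, and a dotted line at 5 FPKM. ITGB1 and ITGA6 sit lowest in knockdown-labelled polyribosome RNA, at 3.89 and 2.34 FPKM, while ITGA3 and ITGB4 sit highest there, at 156 and 116 FPKM.

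In control input the order of levels was ITGA3, ITGB4, ITGB1, ITGB5, ITGA5, ITGA6, ITGB8, ITGA2, ITGAV and ITGB6. Each step in this order was under 2-fold except that between ITGA6 and ITGB8, at 4.46-fold, so with no replicates the other neighbours are not separated. In knockdown-labelled input ITGA6 stood directly below ITGB1, and ITGB8 was last, and the steps of at least 2-fold were from ITGB4 to ITGB1 (2.30-fold) and from ITGA2 to ITGB8 (3.48-fold). In knockdown-labelled polyribosome RNA the 4 subunits rich in G and C took the upper 4 places. The largest step there lay within this class, from ITGB4 to ITGB5 (4.92-fold). Further steps of at least 2-fold were from ITGA5 to ITGB1 (3.78-fold), where the classes meet, and from ITGA6 to ITGB6 (2.13-fold).

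Within each kind of subunit, the mix on knockdown-labelled polyribosomes narrowed to ITGA3 and ITGB4. ITGA3 made up 89.6% of the summed FPKM of the 5 alpha genes in knockdown-labelled polyribosome RNA and 67.1% in knockdown-labelled input, against 72.2% in control polyribosome RNA and 69.5% in control input. ITGA6 made up 1.34% and 19.0% of it in knockdown-labelled polyribosome and input RNA, against 7.57% and 11.1% in control polyribosome and input RNA. Among the 5 beta genes, ITGB4 held 80.1% in knockdown-labelled polyribosome RNA and 57.5% in knockdown-labelled input, against 46.1% and 43.3% in control polyribosome and input RNA. ITGB1 held 2.68% and 25.0% in knockdown-labelled cells, against 28.5% and 31.4% in control cells. The control fractions were thus close to each other in both kinds of subunit, whereas the knockdown-labelled fractions were not. If the knockdown-labelled fractions are exchanged, these narrow shares belong to input RNA and not to polyribosome RNA.

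**Figure D2:**
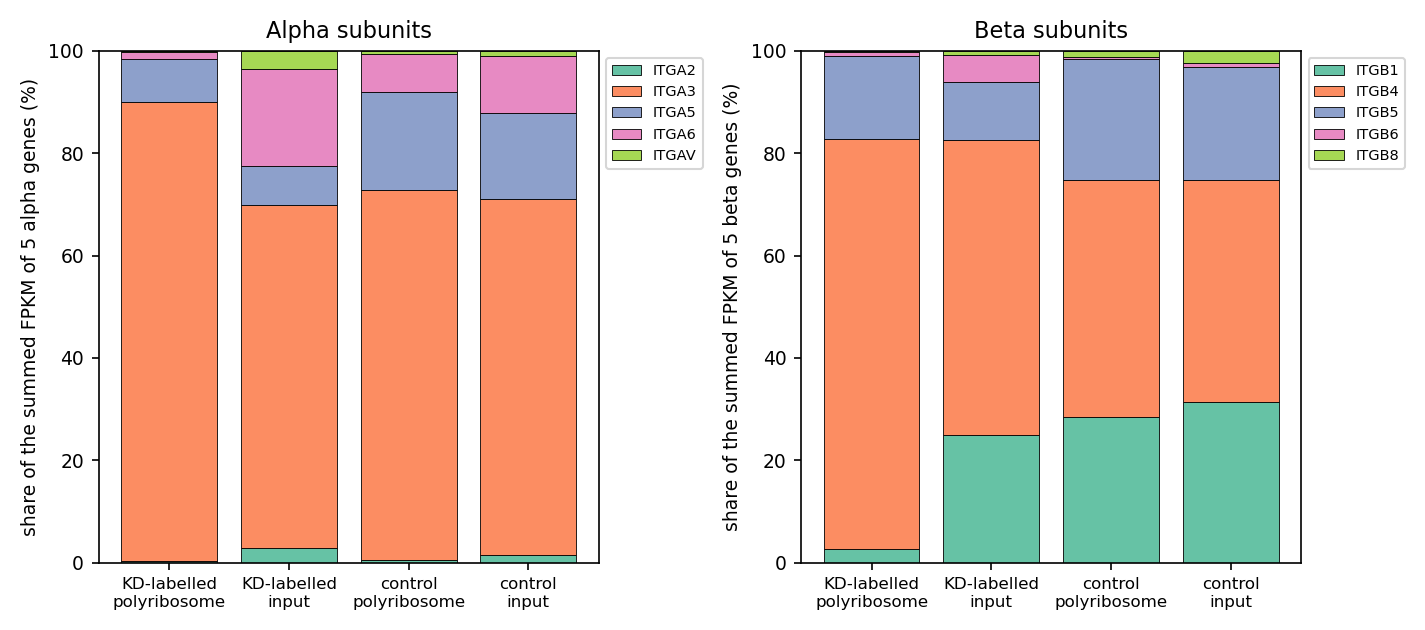
Share of each gene in the summed FPKM of the 5 alpha genes (left) and of the 5 beta genes (right), in percent, with 1 bar per library. In knockdown-labelled (KD-labelled) polyribosome RNA, ITGA3 takes 89.6% of the alpha bar and ITGB4 80.1% of the beta bar, and ITGB1 is reduced to 2.68%.

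In the pairs that join a subunit of each class, the 2 messages were furthest apart in knockdown-labelled polyribosome RNA, as the header names it. The margin was wide for ITGB4 with ITGA6 and for ITGA3 with ITGB1, and small for ITGB5 with ITGAV. It was also small for ITGA5 with ITGB1, as ITGB1 over ITGA5 was 3.48 in knockdown-labelled input. The ratio of ITGB4 to ITGA6, the hemidesmosome pair, was 49.7 in knockdown-labelled polyribosome RNA and 3.21 in knockdown-labelled input, against 6.76 in control polyribosome RNA and 4.12 in control input. ITGA3 over ITGB1 was 40.1 in knockdown-labelled polyribosome RNA and 2.54 in knockdown-labelled input, against 2.28 and 2.10 in control polyribosome and input RNA. ITGB5 over ITGAV was 51.4 and 3.51 in knockdown-labelled polyribosome and input RNA. In control cells that ratio was 48.2 on polyribosomes and 23.5 in input, from ITGAV values under 1 FPKM. ITGA5 over ITGB1 was 3.78 and 0.287 in knockdown-labelled polyribosome and input RNA, against 0.602 and 0.512 in control polyribosome and input RNA. The pairs of 2 subunits low in G and C had no common order. ITGB1 over ITGA2 was 6.82 and 9.33 in knockdown-labelled polyribosome and input RNA, against 55.5 and 22.0 in control polyribosome and input RNA. ITGAV over ITGB8 was 1.53 and 4.26 in knockdown-labelled polyribosome and input RNA, against 0.383 and 0.399 in control polyribosome and input RNA. ITGB6 over ITGAV was 2.39 and 1.61 in knockdown-labelled polyribosome and input RNA, against 0.565 and 0.769 in control polyribosome and input RNA.

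The next comparison asked how the total level of each message differed between knockdown-labelled and control cells. Differences are of log2(FPKM + 1), which understates those of low genes, and a gene was called at least 2-fold higher or lower past 1 on this scale. Of the 10 subunits, 5 were at least 2-fold higher in knockdown-labelled input and 0 lower, against a background of 9.46% higher and 9.84% lower over all 17064 genes. They were ITGB6 (2.46), ITGAV (1.70), ITGA6 (1.40), ITGA2 (1.14) and ITGB4 (1.11). The other 5 were ITGA3 at 0.65, ITGB1 at 0.37, ITGB5 at -0.22, ITGA5 at -0.42 and ITGB8 at -0.56. The median of the 10 was 0.88, and that of all genes was 0.00. With 5 in place of 1 added to each FPKM, ITGAV (0.79) and ITGA2 (0.54) were within 2-fold in input.

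An average of 5 FPKM or more was reached by 6 of the 10 subunits and by 7379 genes in all. Among these, 2 of 6 subunits were at least 2-fold higher in knockdown-labelled input and 0 lower, against 13.2% and 14.4% of the genes. With the knockdown-labelled fractions exchanged, the input values of ITGB1 (-2.68), ITGA6 (-1.74), ITGA2 (-0.60) and ITGAV (-0.39) turned negative. ITGB5 turned positive (0.14), and ITGB6 was at 0.30 and ITGB8 at -1.34. ITGB4 (1.45) was past 2-fold in either order of columns, and ITGA3 (1.28) only with the fractions exchanged.

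In polyribosome RNA the subunits went both ways. ITGB4 and ITGA3 were higher in knockdown-labelled cells by log2 differences of 1.41 and 1.35, and ITGB1 and ITGA6 lower, at -2.50 and -1.14. ITGB1 in the knockdown-labelled polyribosome library was 14.6% of its control level and ITGA6 36.7%. ITGB6 was at 0.74, ITGB8 at -0.76, ITGA5 at -0.12, and ITGB5, ITGA2 and ITGAV were between 0.00 and 0.09. Of the 10 subunits 2 were at least 2-fold higher and 2 lower, against 10.3% and 22.4% of all 17064 genes, and the same 4 genes were counted among the 6 averaging 5 FPKM or more, where the shares of all genes were 16.7% and 32.9%. The median of all 7379 genes was itself -0.28, and relative to it ITGA6 was at -0.86, short of 2-fold. With the fractions exchanged, ITGB1 was at 0.56 and ITGA6 at 2.00, while ITGB4 was at 1.07 and ITGA3 at 0.72.

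The series was designed for the comparison of translation efficiency, taken here as log2(FPKM + 1) on polyribosomes minus that in input. In control cells no subunit was 2-fold higher or lower on polyribosomes than in input on this scale, as was the case for nearly all genes (0% higher and 0.759% lower of 7379, and 0.0352% and 0.779% of all 17064). The 4 subunits rich in G and C had control values between -0.07 (ITGA3) and 0.05 (ITGB5). The other 6 were all below 0, from -0.18 for ITGB1 and -0.39 for ITGAV to -0.60 for ITGA6 and -0.69 for ITGA2. With 0.1 in place of 1 added to each FPKM, ITGA2 (-1.35) and ITGB6 (-1.15) were past 2-fold in control cells, from input levels of 1.38 and 0.70 FPKM. In knockdown-labelled cells the 2 classes stood further apart. The 4 subunits rich in G and C were at 0.34 to 0.63, and the other 6 were at -0.77 (ITGB8), -1.74 (ITGA2), -2.09 (ITGAV), -2.15 (ITGB6), -3.06 (ITGB1) and -3.14 (ITGA6). ITGB1 on knockdown-labelled polyribosomes was thus at 9.81% of its FPKM in the matching input, against 87.8% in control cells, and ITGA6 at 8.22% against 62.7%. The shares of all 7379 genes past 2-fold in knockdown-labelled cells were 8.62% higher and 28.8% lower, and 4.15% and 21.7% of all 17064.

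Set against control, the efficiency difference was -2.87 for ITGB1, at the 2.30th percentile of the 7379 genes, and -2.54 for ITGA6, at the 4.92nd percentile. These ranks hold for the header's order of columns, since with the fractions exchanged ITGB1 was at 3.24 and ITGA6 at 3.74. ITGB6 was at -1.72, ITGAV at -1.70, ITGA2 at -1.06 and ITGB8 at -0.20. ITGA3 was at 0.69, ITGB4 at 0.31, and ITGB5 and ITGA5 at 0.30 each, between the 65.4th and the 79.5th percentile. Of the 10 subunits 0 were at least 2-fold higher and 5 lower, against 6.18% and 19.6% of all 17064 genes. With 5 added to each FPKM, ITGAV (-0.79) and ITGA2 (-0.51) were within 2-fold. Of the 6 averaging 5 FPKM or more, 0 were higher and 2 lower, against 12% and 30.1% of the 7379 genes. The median of these 6 was 0.30 and that of all 10 was -0.63, so the sign of the median depends on whether the low-level subunits are counted. The input, polyribosome and efficiency differences are built from the same 4 libraries and are not independent of each other. In the authors' deposited table, whose ratios have 5 added to each FPKM, the efficiency of ITGB1 was 0.199 in knockdown-labelled and 0.895 in control cells, and that of ITGA6 0.219 and 0.75. That of ITGA3 was 1.52 and 0.957, and that of ITGB8 was 0.852 in both, in the authors' deposited table. The ITGB8 ratios rest on 0.30 to 2.28 FPKM, all below the added 5. Without it ITGB8 on polyribosomes was at 24.6% of its input in knockdown-labelled cells and 52.6% in control cells.

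**Figure D3:**
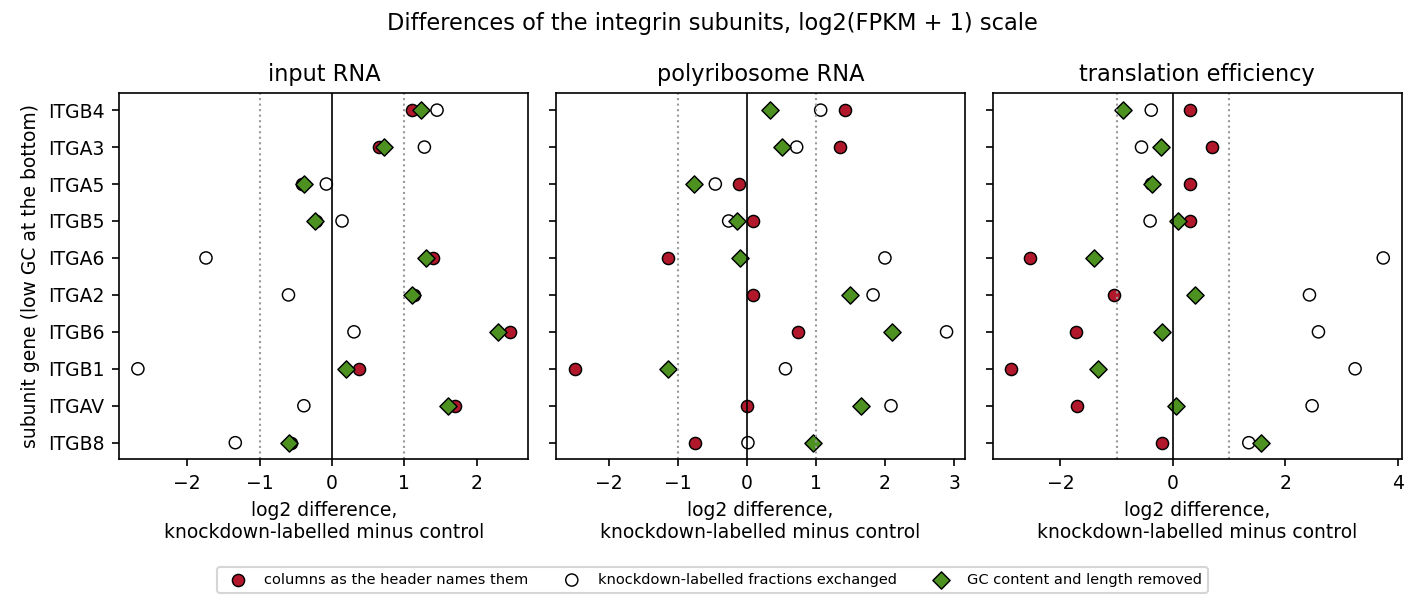
Log2 differences of the 10 integrin subunits, knockdown-labelled minus control, in input RNA, polyribosome RNA and translation efficiency, ordered by GC content with the lowest at the bottom. Red circles follow the header, open circles have the knockdown-labelled fractions exchanged, green diamonds have GC content and length removed, and dotted lines mark 2-fold. In the efficiency panel ITGB1 is at -2.87 by the header, at 3.24 with the fractions exchanged and at -1.34 with GC content and length removed.

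Efficiency differences followed base composition. Over the 10 subunits Pearson's r between GC content and the efficiency difference was 0.76, and over 7345 of the genes averaging 5 FPKM or more it was 0.74. These correlations are across genes measured in the same 4 libraries, and genes are not independent replicates. Log2 transcript length gave an r of 0.09 over the 10 subunits. All 5 subunits at least 2-fold lower in efficiency were among the 6 under 50% G and C, and 65.7% of the 3107 genes under that value were also at least 2-fold lower. Those genes average 5 FPKM or more, whereas of the 5 subunits only ITGB1 and ITGA6 do. Of genes at 50% or more, 4.06% were lower, and 0 of the 4 such subunits were. In control cells alone, r between GC content and the polyribosome to input ratio was 0.83 over the 10 subunits but 0.06 over the genes, and r with log2 length was -0.66 over the 10 subunits.

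After a trend on GC content and transcript length was removed across all genes, ITGA6 and ITGB1 still had the lowest values, with -1.40 for ITGA6 and -1.34 for ITGB1, where the median of all genes was -0.40. ITGB4 was then at -0.89, ITGA5 at -0.38, ITGA3 at -0.21, ITGB6 at -0.20 and ITGB5 at 0.09. ITGAV (0.05) and ITGA2 (0.39) turned from negative to positive, and ITGB8 was at 1.56. The 4 values of ITGAV, ITGA2, ITGB6 and ITGB8 rest on FPKM of 5.20 or less, apart from ITGB6 in knockdown-labelled input. In polyribosome RNA the same removal left ITGB1 at -1.14 and brought ITGB4 to 0.34, ITGA3 to 0.50 and ITGA6 to -0.10. It took the low-level ITGB6 (2.11), ITGAV (1.65) and ITGA2 (1.49) past 2-fold higher there. In input RNA ITGB4 (1.23) and ITGA6 (1.30) hardly moved. The median of all genes was then -0.38 in polyribosome RNA and 0.01 in input RNA. With the fractions exchanged the efficiency of the low-GC subunits was higher in knockdown-labelled cells, from 1.35 for ITGB8 to 3.74 for ITGA6, and that of the others was between -0.56 and -0.38.

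**Figure D4:**
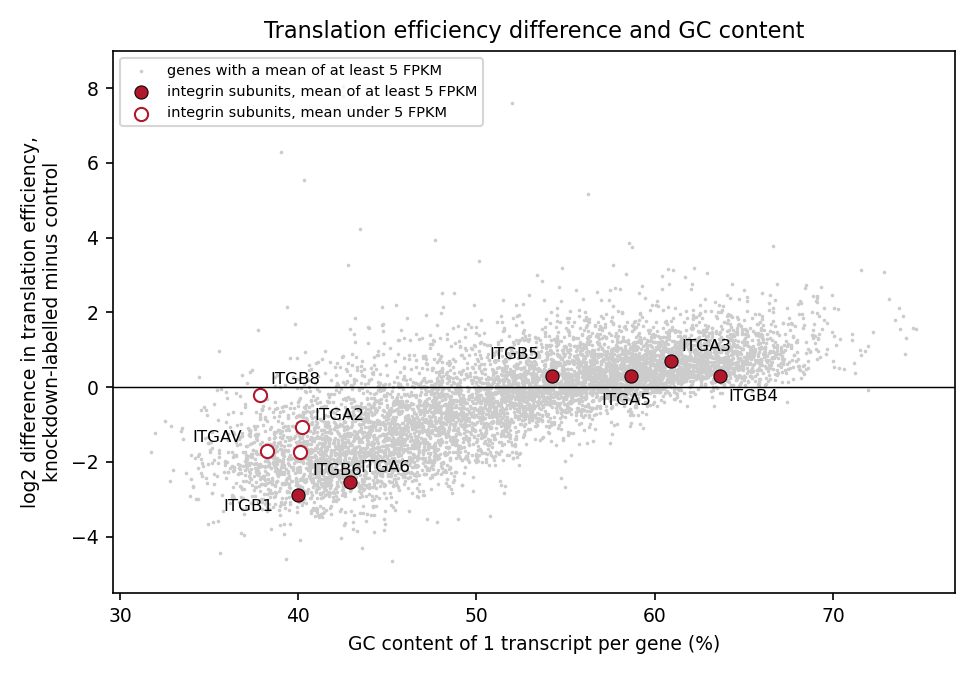
Log2 difference in translation efficiency, knockdown-labelled minus control, against the GC content of 1 transcript per gene, for 7345 genes (grey) and the 10 integrin subunits (red, open where the mean was under 5 FPKM). The 4 subunits above 54% G and C lie between 0.30 and 0.69, and ITGB1 and ITGA6 lie at -2.87 and -2.54 near 40% and 43%.

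Genes whose profile over the 4 libraries was most like that of a subunit were sought among 5625 genes averaging 10 FPKM or more, by the root mean square distance of log2(FPKM + 1) centred on each gene's own mean. Closest to ITGB1 were RSL1D1 (0.026), DDX3X (0.035) and GLO1 (0.0525). Closest to ITGA6 were ACSL3 (0.0971), LRRC8D (0.129) and EID1 (0.162), and closest to ITGB4 were SLC44A2 (0.0268), SLC12A9 (0.0336) and TUBGCP2 (0.0355). The 6 genes most like ITGB1 and ITGA6 had 38.1% to 44.9% G and C, and the 3 most like ITGB4 had 56.3% to 64.7%.

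The matrix ligands that these receptors bind went both ways in input RNA. Of 26 listed, 25 were in the table and 11 averaged 5 FPKM or more, of which 3 were at least 2-fold higher and 3 lower in knockdown-labelled input (13.2% and 14.4% of all genes averaging 5 FPKM or more). SPP1, the osteopontin gene, was at 39.98 FPKM in knockdown-labelled and 0.25 FPKM in control input, a log2 difference of 5.03, and CTGF, a matricellular protein, differed by 2.91. TGFB1, whose latent form the alphaV receptors bind, was lower, at 21.1 FPKM in knockdown-labelled and 162 FPKM in control input (-2.88), and CYR61, also matricellular, differed by -1.41. In efficiency 1 of the 11 ligands was at least 2-fold higher and 3 lower, against 12% and 30.1% of all these genes, and 3 were higher and 1 lower with the fractions exchanged. For counts with the fractions exchanged, here and below, no share over all genes is given unless stated. SPP1 (-2.69) and THBS1, the adhesive glycoprotein thrombospondin-1 (-1.98), had the lowest values, and LAMA5, a laminin chain (0.96), and TGFB1 (1.12) the highest. With GC content and length removed, SPP1 was at -1.55, THBS1 at -1.26, LAMA5 at -0.73 and TGFB1 at -0.03, where the median of all genes was -0.40.

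Hemidesmosome partners of alpha6-beta4 were present in both kinds of cell. PLEC, the plectin gene that links ITGB4 to keratin, was at 19.8 and 11.9 FPKM in knockdown-labelled polyribosome and input RNA, and at 7.89 and 7.31 FPKM in control polyribosome and input RNA. CD151, a tetraspanin of the laminin receptors, and COL17A1, a transmembrane collagen, differed in input by 0.23 and 0.76, and PLEC by 0.64. Their efficiency differences were 0.46, -0.76 and 0.59. All 4 listed genes were in the table and 3 averaged 5 FPKM or more. Of these 3, 0 passed 2-fold in input or efficiency. Of all genes with that mean, 13.2% were higher and 14.4% lower in input, and 12% and 30.1% in efficiency. PLEC was higher in polyribosome RNA (1.22), where the shares were 16.7% and 32.9%. Of all 4 listed genes, 1 was higher and 1 lower in polyribosome RNA, against 10.3% and 22.4% of all 17064 genes. With GC content and length removed, the efficiency differences were -1.33 for PLEC, -1.17 for COL17A1 and -0.78 for CD151, where the median of all genes was itself -0.40. PLEC was then higher in input (1.15), and 0 of the 3 were higher in polyribosome RNA, where the median of all genes was -0.38.

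Among adaptors that join integrin tails to actin and signalling, the counts in each direction depended on the order of columns. Of 26 averaging 5 FPKM or more, 3 were at least 2-fold higher and 14 lower in polyribosome RNA, against 16.7% and 32.9% of all genes with that mean. With the fractions exchanged 5 were higher and 5 lower. In input 5 were higher and 3 lower by the header, against 13.2% and 14.4% of all genes with that mean. With the exchange 3 were higher and 13 lower in input, where the median was -0.92 for the 26 and -0.23 for all genes. PARVB, an adaptor bound to integrin-linked kinase, was at 13.8 FPKM in knockdown-labelled and 0.03 FPKM in control input, a log2 difference of 3.85. PTK2, the focal adhesion kinase, was higher by 1.34, and FLNA, the actin cross-linker filamin A (-1.29), and ILK, the integrin-linked kinase (-1.23), were lower. In efficiency 0 were higher and 10 lower, against 12% and 30.1% of all these genes. With the fractions exchanged 10 were higher and 0 lower, and the median was 0.56 for the 26 and -0.05 for all genes. By the header, PTK2 (-2.52) and TES (-2.35), an adhesion LIM protein, were lowest, and BCAR1 (0.64), a scaffold phosphorylated at adhesions, and the kinase SRC (0.83) highest. The median efficiency difference of the 26 was -0.53, and that of all 7379 genes was -0.12.

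Regulators of integrin activity and traffic were mixed. Of 17 averaging 5 FPKM or more, 2 were at least 2-fold higher and 2 lower in knockdown-labelled input, against 13.2% and 14.4% of all these genes. In polyribosome RNA 5 were higher and 3 lower, against 16.7% and 32.9%, and the 5 became 1 with the fractions exchanged or with GC content and length removed. DOK1, which competes with talin for beta tails, differed in input by 2.21 and the tetraspanin CD63 by 1.06, against -1.32 for ITGB1BP1, which binds the beta1 tail as an inhibitor, and -1.26 for the tetraspanin CD82. In efficiency 1 was higher and 3 lower, against 12% and 30.1%. CD47, an integrin-associated membrane protein (-2.06), and RAB11A, a recycling GTPase (-2.02), were lowest, and SHARPIN, an inhibitor of integrin activation (0.88), and RAB25, which carries alpha5-beta1 in recycling vesicles (1.21), were highest. With GC content and length removed, all 4 were within 2-fold in efficiency. CD47 was then at -0.11, RAB11A at -0.09, SHARPIN at -0.65 and RAB25 at 0.43, where the median of all genes was -0.40. With the fractions exchanged every efficiency value named for a ligand, hemidesmosome partner, adaptor or regulator changed sign. Those of SPP1, THBS1, COL17A1 (0.76), PTK2, TES, CD47 and RAB11A were then positive. Those of LAMA5 (-0.01), TGFB1, PLEC (-0.78), CD151 (-0.93), BCAR1 (-0.67), SRC (-0.87), SHARPIN (-1.05) and RAB25 were then negative. Of the input values named for these genes, PTK2 alone changed sign (-1.46).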

How the data were processed

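Polyribosome-bound and input poly(A) RNA of knockdown-labelled and control KYSE-150 cells was sequenced from stranded mRNA libraries, per the labels' protocols, with 1 library per group. The authors deposited FPKM values per gene symbol, rounded to 0.01, and, per the labels, a ratio of polyribosome to input FPKM; the values show that 5 was added to each FPKM. TopHat and the builds hg19 and GRCh37 are named in the submitters' processing notes. The sources used here do not state the counting tool, the annotation or the depth.

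Differences of log2(FPKM + 1) were computed with Python 3.11.15 and pandas 2.3.3 and checked on simulated data. The members and lists were chosen with earlier results of these data known. In each list the 2 highest and 2 lowest genes per comparison could be named. GC content, length and coding ends came from 1 GENCODE 29 transcript per gene, matched by symbol or synonym for 99.5% of 7379 genes, a build other than that of the notes, so no coordinates are given. The GC trend was quadratic in GC content and log2 length, with their product. Alternatives were pseudocounts of 0.1 and 5, a minimum mean of 1 FPKM or none, TPM or upper quartile scaling, centring, exchanged fractions and GC removal.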

Additional observations from a re-analysis of the deposited data

Results flagged for a closer look

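With 1 library per group, a subunit is listed here where it moved in opposite directions in 2 settings of the same contrast, and none of these differences was tested. The difference between knockdown-labelled and control cells was 1.40 in input and -1.14 in polyribosome RNA for ITGA6, and 0.37 in input and -2.50 in polyribosome RNA for ITGB1. For ITGB5 it was -0.22 in input and 0.09 in polyribosome RNA, both within 2-fold. The ratio of polyribosome to input RNA of ITGA3 was 0.63 in knockdown-labelled and -0.07 in control cells on the log2 scale.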

How the results depend on the processing

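No paired analysis was possible because each group was 1 library. The exchange of the knockdown-labelled fractions changed most. It turned the input values of ITGA2 (-0.60), ITGA6 (-1.74), ITGAV (-0.39), ITGB1 (-2.68) and PTK2 (-1.46) and the polyribosome values of ITGA6 (2.00) and ITGB1 (0.56). Among values within 2-fold in both orders, it turned ITGB5 in input (0.14) and polyribosome RNA (-0.27) and ITGB8 in polyribosome RNA (0.01). It also turned the efficiency differences of ITGA2 (2.43), ITGA6 (3.74), ITGAV (2.47), ITGB1 (3.24), ITGB6 (2.59), CD47 (1.53), PTK2 (3.10), RAB11A (1.35), RAB25 (-0.39), SPP1 (3.16), TES (1.99), TGFB1 (-1.06) and THBS1 (2.36), and, by its construction, the knockdown-labelled polyribosome to input ratios of ITGA2 (1.74), ITGA6 (3.14), ITGAV (2.09), ITGB1 (3.06) and ITGB6 (2.15). Of the 6 subunits with a mean of at least 5 FPKM, 2 were then lower in input and 0 in polyribosome RNA, and 2 were higher and 0 lower in efficiency and in that ratio. Their medians were 0.64 in polyribosome RNA, -0.38 in efficiency and -0.34 for the ratio. For the ratio, the exchange makes the shares of all 7379 genes 28.8% higher and 8.62% lower. The other shares of all genes are not given for the exchanged order. With a minimum mean of 1 FPKM or none all 10 subunits were counted. Then 5 were higher in input, and 5 were lower in efficiency and in the knockdown-labelled ratio, with medians of -0.63 and -1.26. Removal of GC content and length turned the efficiency differences of ITGA2 (0.39), ITGAV (0.048) and TGFB1 (-0.028). It also turned the smaller differences of ITGA3, ITGA5, ITGB4, ITGB8, PLEC, CD151, LAMA5, SHARPIN and BCAR1. CD47 (-0.11), RAB11A (-0.09) and RAB25 (0.43) were then within 2-fold in efficiency. Of the 6 subunits averaging 5 FPKM or more, the removal left 0 higher and 1 lower in polyribosome RNA. Their medians of efficiency and of the knockdown-labelled ratio moved to -0.64 and -0.57. The low-level ITGB6 (2.11), ITGAV (1.65) and ITGA2 (1.49) were then past 2-fold higher in polyribosome RNA. With that removal the medians of all genes were -0.40 in efficiency, -0.38 in polyribosome RNA and -0.36 for the knockdown-labelled ratio. A pseudocount of 5, or centring on the median of all genes, left 1 subunit lower in polyribosome RNA. The pseudocount of 5 also ended the calls of ITGA2 and ITGAV in input, efficiency and the knockdown-labelled ratio. Centring ended the efficiency call of ITGA2 (-0.93) and took ITGB6 past 2-fold in polyribosome RNA (1.02). A pseudocount of 0.1 added calls for ITGA2 and ITGB6 in the control ratio, ITGB6 (1.74) and ITGB8 (-1.70) in polyribosome RNA and ITGB8 (-1.72) in the knockdown-labelled ratio, and for LAMA5 in efficiency (1.06). TPM moved the median efficiency difference of all genes from -0.12 to -0.37 and took ITGB8 past 2-fold in polyribosome RNA (-1.08) and in the knockdown-labelled ratio (-1.14), the only such change among the 50 integrin values. Upper quartile scaling moved 0 of 155 results past these limits. Causes were not tested beyond what each alternative is built to change. Values near the 0.01 FPKM rounding limit, and all values of the 4 low subunits, are limited by a depth that is unknown.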

Other observations

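Of the 16 other integrin subunit genes sought, all 16 were in the table and 0 had a mean of at least 5 FPKM, and 14 were under 0.5 FPKM in every library. The exceptions, named after their values were seen, were ITGAE, the subunit of the E-cadherin receptor of intraepithelial lymphocytes, and ITGB2, the beta subunit of leukocyte integrins. ITGAE was at 4.02 FPKM on polyribosomes and 1.73 FPKM in input of knockdown-labelled cells, against 2.03 and 3.53 FPKM in control cells. ITGB2 was at 0.19 and 0.36 FPKM in knockdown-labelled cells, against 1.74 and 1.12 FPKM in control cells.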
